A study of Mus musculus with 4 samples.

Results

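Early 2-cell (E2C) and late 2-cell (L2C) mouse embryos were compared gene by gene and isoform by isoform, to describe which functional groups and which isoform types were gained and lost across the major wave of zygotic genome activation (ZGA). The members were all columns of the gene and isoform tables named as E2C or L2C cells, averaged within the embryo that the name gives. They made 5 E2C embryos (10 cells) and 6 L2C embryos (11 cells), among 43 individual oocytes, zygotes and embryos of 7 stages (121 cells) that entered the fits. The tables hold 161 cells, and those of later stages and of embryonic stem cells were not used here. The study isolated single cells from MII oocytes to blastocysts and embryonic stem cells, amplified their polyadenylated RNA as full-length cDNA with a cell barcode and unique molecular identifiers (UMIs), and read the pooled cDNA on the PacBio platform. Females were C57BL/6J mice of 6 to 8 weeks mated with DBA/2NCrl males, while the strain label reads DBA/2J x C57BL/6J. E2C embryos were collected 30 to 32 hours and L2C embryos 46 to 48 hours after hCG, the hormone that triggers ovulation. Cells of 3 sequencing runs share the tables, the run of each 2-cell cell is not given, and an embryo number may have been used in more than 1 run. Values are copies per 100,000 UMIs of a cell, so less RNA per cell and a lower share of a transcript cannot be told apart.

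The fertilized egg starts with RNA and protein stored by the oocyte, and its own genome is almost silent. A minor wave of transcription begins in the zygote and a major wave follows in the 2-cell embryo, while the stored RNA is deadenylated and degraded. In the mouse this exchange is known for a brief burst of genes such as Dux and the Zscan4 cluster, and for the switch-on of genes for ribosomes, RNA processing and energy metabolism.

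Cells held 31037 to 105534 gene UMIs in E2C and 17971 to 67963 in L2C, and 18081 to 64575 and 10965 to 50326 isoform UMIs. Of the maternal markers Bmp15, Oosp1 and H1foo were called lower in L2C, Gdf9 was not called (42.9 to 15.2 copies), and Zp3 was called higher. Of the late 2-cell markers B020004C17Rik was called higher, Tcstv1 and Zscan4c were called lower, and Zscan4d, Zfp352 and Tcstv3 were not called, so the rise that the L2C label implies was found for 1 of 6. Zscan4c stood at 0, 2.63, 12, 5.93 and 1.09 copies in E2C and at 0 to 5.56 (median 0.438) in L2C, with overlap. Fshr, Inha, Has2, Ptgs2 and Tnfaip6 of cumulus and granulosa cells, and Hbb-bs, Ptprc and Col1a1 of blood and stroma, had no UMI in any 2-cell embryo. Hba-a1, a globin, was at 0.417 ± 0.698 and 8.94 ± 3.9 copies (SD). The marker lists summed to 1.58 to 5.1 copies in E2C and 0 to 2.49 in L2C for cumulus and granulosa cells, 4.35 to 19.4 and 3.96 to 8.09 for sperm and testis, 3.17 to 5.57 and 9.07 to 19.5 for blood and stroma, and 21.6 to 30.4 and 5.56 to 19.5 for trophectoderm and epithelium. Their part in the results was not tested.

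E2C embryos 2 and 3 and L2C embryo 1 stood apart. In E2C embryos 2 and 3 mitochondrial transcripts took 14.6% and 13.3% of isoform UMIs, against 4.91% to 6.59% in the other E2C embryos, and H1foo, the linker histone of the oocyte, was at 35.7 and 34.3 copies against 135 to 193. L2C embryo 1 was a single cell with the fewest UMIs, in which 1 UMI is worth 5.56 copies, and with 26.6% mitochondrial isoform UMIs against 12.5% to 16.6%. Some results that changed without these embryos are given with and without them. Other counts moved too and are given only with them. Without E2C embryos 2 and 3, for example, higher calls went from 37 to 32 for splicing factors and from 17 to 20 for chaperones.

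Genes called in either direction held most gene UMIs of the stage in which they were higher. Genes called higher in L2C held 10.6% ± 1.22 of gene UMIs in E2C and 57.8% ± 5.01 in L2C (SD, n = 5 and 6), and genes called lower held 60.1% ± 1.83 and 11.7% ± 3.55. Since the same values chose these genes, the shares are a description. Of 11682 genes tested 2990 were called higher (25.6%) and 2664 lower (22.8%), a call being a change of more than 2-fold either way with limma's p, before adjustment, below 0.01. With median-ratio size factors, which average 0.982 in E2C and 1.41 in L2C, the median log2 fold change of all genes moved from 0.03 to -0.17. The calls became 2331 higher and 3279 lower, and the higher share of calls went from 52.9% to 41.6%. Protein coding genes gave 2834 higher and 2338 lower calls of 10725 tested, and long noncoding genes 138 and 284 of 841.

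**Figure D1:**
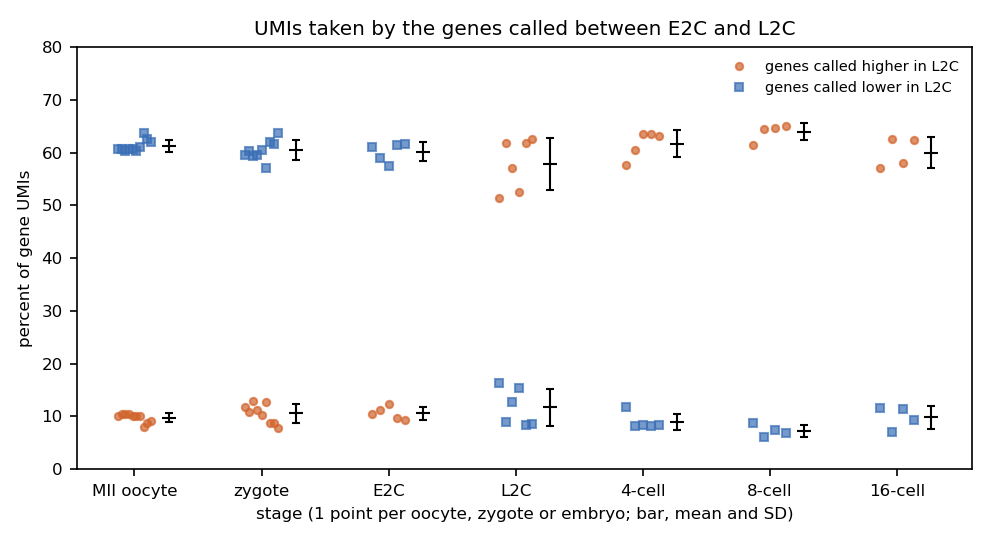
Percent of gene UMIs (vertical axis) taken by the genes called higher (circles) and lower (squares) between E2C and L2C, for each oocyte, zygote or embryo of 7 stages, with stage mean and SD. Oocytes and 4-cell embryos were outside the contrast but entered the filter, the weights and the pooled spread. In them the genes called lower took 61.3% and 8.95%, and those called higher 9.73% and 61.7%.

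The other stages show where these genes stood before and after. Of the 2990 genes called higher, 1879 (62.8%) averaged under 1 copy in oocytes and zygotes, 100 (3.34%) had no UMI in any of them, and 138 (4.62%) stood at 10 copies or more in oocytes. By the 4-cell stage 383 (12.8%) had a mean more than 2-fold below that of L2C and 233 (7.79%) more than 2-fold above it. Among the 2664 genes called lower, 936 (35.1%) stood at 10 copies or more in oocytes. In this group, which a high E2C level chose, 892 (33.5%) had an E2C mean more than 2-fold above the oocyte mean and 305 (11.4%) averaged under 1 copy in oocytes and zygotes. In 85 genes no UMI was found in E2C and some in every L2C embryo, among them Hipk1, a kinase (19.1 copies in L2C), and Tead4, a transcription factor of the later trophectoderm (9.08). In 307 genes the reverse held, led by Iglc2 (19.8 copies in E2C). L2C cells were read less deeply, so a 0 in L2C allows a higher level than a 0 in E2C.

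Mt2, a metallothionein, had the largest rise among genes at 10 copies or more without overlap. Metallothioneins are small proteins that bind zinc and copper. Mt2 (chr8:94172664-94173568, mm10) stood at 0.547, 0.71, 1.42, 6.62 and 4.85 copies in the 5 E2C embryos and at 134 to 341 (median 214) in the 6 L2C embryos. Mt1, its neighbour, stood at 2.4, 2.13, 3.06, 3.72 and 7.01 copies in E2C and at 162 to 319 (median 216) in L2C. Every L2C embryo was above every E2C embryo for both (log2 fold change 6.17, SE 0.421, adjusted p = 9.58e-19 by limma, for Mt2 and log2 fold change 5.71, SE 0.461, adjusted p = 4.13e-16 by limma, for Mt1). The lincRNA B020004C17Rik rose from 2.03 ± 2.31 to 159 ± 32.7. The other genes among the 8 largest rises were Exoc3l2, an exocyst-related gene (0.109 ± 0.243 to 52.5 ± 17.2), Med29, a Mediator subunit (1.35 ± 1.26 to 101 ± 29.2), Selenos, a selenoprotein of the endoplasmic reticulum (1.6 ± 0.792 to 104 ± 42.3), Ctsc, a lysosomal protease (1.03 ± 1.24 to 62.3 ± 28.2), and Znhit3, a factor of small nucleolar RNP assembly (2.98 ± 1.46 to 116 ± 31.3). None of the 8 overlapped between the stages, which was part of how they were chosen and held for 27.6% of all genes tested.

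The promoters of both metallothioneins are shown because the genes are neighbours on chromosome 8 that rose together, and those of Rpl41 and Nhp2 because these led the ribosomal lists described next. They are RefSeq windows (GRCm38.p6) from 250 bases before to 50 after the start, on the strand of the gene. Capitals mark, in Mt2 and Mt1, the core letters TGCACNC or TGCGCNC of the metal response element on either strand. In Rpl41 and Nhp2 capitals mark CCGGAA, letters that ETS factors such as Gabpa bind. The windows are chr8:94172368-94172667 for Mt2, chr8:94178839-94179138 for Mt1, chr10:128549119-128549418 (minus strand) for Rpl41 and chr11:51619523-51619822 for Nhp2. The Mt2 and Mt1 isoforms with the largest rises start upstream of these windows, at 94172247 and 94178689. The 4-exon Rpl41 isoform described below also starts upstream, at 128551972. Whether the windows drive the measured transcripts was not tested.
Mt2: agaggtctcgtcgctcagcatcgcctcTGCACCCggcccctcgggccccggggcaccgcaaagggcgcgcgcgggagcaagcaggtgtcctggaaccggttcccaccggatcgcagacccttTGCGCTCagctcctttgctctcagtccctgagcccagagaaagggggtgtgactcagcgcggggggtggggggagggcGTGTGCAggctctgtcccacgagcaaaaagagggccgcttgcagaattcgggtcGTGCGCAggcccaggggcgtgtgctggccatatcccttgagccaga
Mt1: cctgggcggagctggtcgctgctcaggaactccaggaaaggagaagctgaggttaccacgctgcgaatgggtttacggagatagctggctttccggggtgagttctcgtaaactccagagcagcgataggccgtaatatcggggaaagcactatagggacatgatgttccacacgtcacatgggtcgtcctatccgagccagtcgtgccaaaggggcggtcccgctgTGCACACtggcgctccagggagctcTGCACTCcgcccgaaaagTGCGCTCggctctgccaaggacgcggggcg
Rpl41: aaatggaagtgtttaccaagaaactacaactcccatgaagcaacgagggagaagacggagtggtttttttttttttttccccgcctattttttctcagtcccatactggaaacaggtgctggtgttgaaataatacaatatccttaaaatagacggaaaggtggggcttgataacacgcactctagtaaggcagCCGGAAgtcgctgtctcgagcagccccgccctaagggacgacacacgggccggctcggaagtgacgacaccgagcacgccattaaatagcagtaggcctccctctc
Nhp2: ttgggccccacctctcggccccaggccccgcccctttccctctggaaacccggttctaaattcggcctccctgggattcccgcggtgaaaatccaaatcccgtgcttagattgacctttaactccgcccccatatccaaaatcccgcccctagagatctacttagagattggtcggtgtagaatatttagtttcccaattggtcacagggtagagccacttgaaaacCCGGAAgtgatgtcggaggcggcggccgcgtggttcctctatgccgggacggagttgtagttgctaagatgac

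The Mt2 window held 4 metal response matches and the Mt1 window 3. Either spelling was present in 25.6% of all 27025 promoters, in 36.1% of the 9000 tested genes that have one, in 36.1% of genes called higher and in 34.2% of genes called lower. CCGGAA was present in 15.2% of all promoters, 29.8% of tested genes, 37.3% of genes called higher (869 of 2330) and 24.1% of genes called lower (484 of 2011). It stood in 30 of 61 ribosomal protein promoters, 38 of 75 of ribosome biogenesis, 20 of 37 of proteasome subunits and 0 of 17 of oocyte factors. CCAAT, the letters of the NF-Y box, stood in 39.1% of genes called higher and 38.9% of genes called lower, GGATTA in 7.12% and 5.62%, and TATAAA in 6.87% and 8.5%. All are letter matches on both strands, and no spelling contains another. Gabpa itself stood at 1.85, 1.24, 1.42, 0 and 4.83 copies in E2C and at 17.7 to 40.6 (median 32.9) in L2C, without overlap (log2 fold change 3.67, SE 0.393, adjusted p = 5.15e-12 by limma), and Nfyb, a subunit of NF-Y, rose from 0.71 ± 0.677 to 18.6 ± 6.64. Whether these factors or these letters bear on the calls was not tested.

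Most genes of cytosolic ribosomal proteins were called higher. Cytosolic ribosomal proteins gave 79 higher and 0 lower calls of 82 members tested, with a median log2 fold change of 3.05 against 0.03 over all genes. Their summed level went from 996 ± 155 to 6619.8 ± 1961 copies, and the calls were 78 and 1 with median-ratio size factors. The exceptions, not called, were Rpl3, Rps15a and Rps27l. Rpl41, a very short protein of the large subunit, stood at 14.3, 26.8, 33.4, 42.5 and 83.8 copies in E2C and at 439.6 to 1115 (median 832) in L2C. The stages did not overlap (log2 fold change 4.70, SE 0.352, adjusted p = 3.34e-17 by limma). Rpl23a and Rpl24 rose from 2.65 ± 2.56 to 55.7 ± 22.9 and from 5.14 ± 2.81 to 105 ± 25.5. Ribosomal protein genes have many processed pseudogenes, and reads could be shared with them.

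Genes that build ribosomes were called higher far more often than lower. Ribosome biogenesis and nucleolar genes gave 72 higher and 0 lower calls of 88 members tested (median log2 fold change 2.11), and their summed level went from 505 ± 60.6 to 1841 ± 272 copies. Nhp2, a core protein of H/ACA small nucleolar RNPs, stood at 3.49, 2.47, 1.97, 5.58 and 2.7 copies in E2C and at 77.9 to 108 (median 92.1) in L2C. No embryo overlapped (log2 fold change 4.50, SE 0.372, adjusted p = 8.73e-16 by limma). Wdr74, a nucleolar factor of large-subunit assembly, rose from 0.841 ± 0.59 to 37.8 ± 10.8, and Lyar, a nucleolar protein, from 2.25 ± 1.0 to 45 ± 9.55. Ncl, or nucleolin, rose from 7.83 ± 1.91 to 25.6 ± 12.3.

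Translation initiation factors gave 28 higher and 6 lower calls of 44 members tested (median log2 fold change 1.34), or 20 and 6 with median-ratio size factors. Eif3m, a subunit of eIF3, stood at 1.2, 1.24, 1.63, 4.27 and 0.543 copies in E2C and at 16.7 to 44.2 (median 30.6) in L2C, without overlap. Eif4e1b, the oocyte form of the cap-binding protein, stood at 19.2, 39.98, 36.6, 40.8 and 44.4 copies in E2C and at 0 to 4.14 (median 0.762) in L2C (log2 fold change -4.21, SE 0.442, adjusted p = 2.84e-12 by limma), and its relative Eif4e2 stood at 3.15, 3.0, 1.02, 1.52 and 3.78 copies in E2C and at 15.8 to 43 (median 36.2) in L2C (log2 fold change 3.39, SE 0.373, adjusted p = 1.25e-11 by limma). Neither overlapped. Aminoacyl tRNA synthetases and their scaffolds gave 8 higher and 1 lower calls of 23 members tested, beside 25.6% and 22.8% over all genes. The calls were 4 and 1 with median-ratio size factors and 4 and 1 in cells thinned to 17000 gene UMIs. Rars, for arginine, rose from 1.2 ± 0.914 to 24.5 ± 7.65, Aimp2, a scaffold, from 2.75 ± 0.882 to 35.3 ± 15.9, and Farsb, for phenylalanine, fell from 44.3 ± 11 to 7.64 ± 2.46.

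Protein turnover and folding moved in part. Proteasome subunits gave 23 higher and 5 lower calls of 44 members tested (median log2 fold change 1.32), or 20 and 8 with median-ratio size factors and 17 and 2 in thinned cells. Psmb5, a catalytic subunit, stood at 1.3, 2.13, 2.98, 1.65 and 0 copies in E2C and at 33.4 to 56.9 (median 45.6) in L2C, without overlap (log2 fold change 4.24, SE 0.341, adjusted p = 3.79e-16 by limma). Psmb1, of the same core ring, rose from 3.67 ± 2.45 to 60.9 ± 7.84, and Psmd7, of the regulatory lid, from 2.22 ± 1.61 to 36.1 ± 9.06. Chaperones gave 17 higher and 4 lower calls of 41 members tested. Subunits of prefoldin, which hands unfolded proteins to the chaperonin, went opposite ways: Pfdn6 rose from 2.21 ± 1.28 to 47.1 ± 20.5, while Pfdn4 stood at 211, 158, 205, 149 and 167 copies in E2C and at 9.98 to 16.2 (median 12.5) in L2C, without overlap (log2 fold change -3.68, SE 0.298, adjusted p = 4.60e-16 by limma). Bag1, a cochaperone of Hsp70, rose from 0.203 ± 0.28 to 16.7 ± 4.39.

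**Figure D2:**
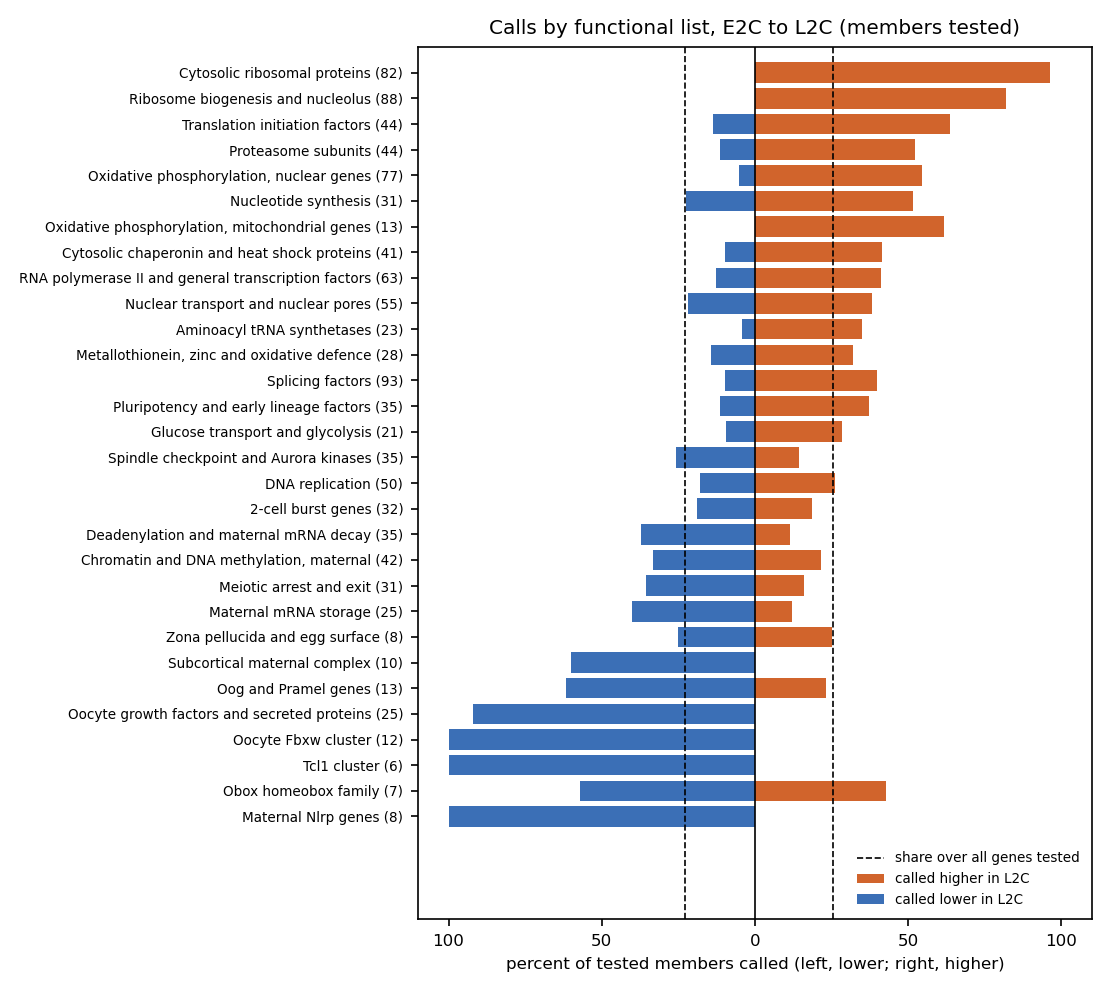
Percent of tested members called higher (right) and lower (left) in L2C for each functional list, with the number of members tested in brackets and dashed lines at the shares over all genes (25.6% and 22.8%). Lists are ordered by median log2 fold change, with cytosolic ribosomal proteins (79 of 82 higher) at the top and oocyte families at the bottom.

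Genes for making and splicing RNA were gained less evenly. RNA polymerase II and its general factors gave 26 higher and 8 lower calls of 63 members tested (median log2 fold change 0.82), or 21 and 12 with median-ratio size factors and 20 and 5 in thinned cells. Gtf2h5, the smallest TFIIH subunit, stood at 1.75, 3.71, 4.41, 1.03 and 1.61 copies in E2C and at 24.9 to 75.4 (median 49.6) in L2C, without overlap. Nelfe, of the pausing factor NELF, and Supt4a, of the elongation factor DSIF, rose from 0.348 ± 0.328 to 18.6 ± 7.71 and from 7.62 ± 1.31 to 74.7 ± 20.1. Gtf2b, which bridges TBP and the polymerase, fell from 41 ± 16 to 4.61 ± 5.8, and the polymerase subunit Polr2c from 197 ± 27.9 to 55.7 ± 19. Splicing factors gave 37 higher and 9 lower calls of 93 members tested (median log2 fold change 0.41), or 29 and 19 with median-ratio size factors. Snrpd2, a core Sm protein, rose from 2.25 ± 1.6 to 38.6 ± 17.5, and Snrnp25, of the minor spliceosome, from 0.739 ± 0.481 to 22.2 ± 4.62. Lsm8, of the U6 ring, was also called higher, from 2.0 ± 1.55 to 26 ± 14.1, with overlap. Snrpb2, a U2 protein, fell from 94 ± 24.2 to 10.1 ± 5.42.

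Nuclear transport gave 21 higher and 12 lower calls of 55 members tested, or 19 and 17 with median-ratio size factors and 15 and 7 in thinned cells. Over all genes 25.6% were called higher and 22.8% lower. Kpna7, the oocyte importin alpha, stood at 21.2, 22.6, 21.5, 30.2 and 17.3 copies in E2C and at 0 to 1.47 (median 0) in L2C (log2 fold change -4.31, SE 0.36, adjusted p = 1.27e-15 by limma). Kpna1, another importin alpha, rose from 1.39 ± 1.22 to 18.3 ± 5.12. Tnpo3, which imports SR splicing factors, had no UMI in any E2C embryo and 10.8 to 18.9 (median 18.2) copies in L2C. Ipo7, which imports ribosomal proteins, likewise went from 0 in all to 4.86 to 15.2 (median 10.3). None of these 4 overlapped.

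Genes of oxidative phosphorylation were called higher more often than lower in both the nuclear and the mitochondrial genome, and for the mitochondrial genome the calls were lost with median-ratio size factors. Nuclear genes of oxidative phosphorylation gave 42 higher and 4 lower calls of 77 members tested (median log2 fold change 1.32), or 37 and 5 with median-ratio size factors. Cox4i1, a cytochrome c oxidase subunit, stood at 1.95, 7.76, 2.58, 4.0 and 4.35 copies in E2C and at 61.2 to 116 (median 67) in L2C, without overlap (log2 fold change 4.10, SE 0.445, adjusted p = 7.61e-12 by limma). Atp5g1, of ATP synthase, and Ndufa7, of complex I, rose from 11 ± 4.15 to 149 ± 54.2 and from 1.45 ± 1.23 to 28 ± 8.82, while Sdha, of complex II, fell from 23.6 ± 6.09 to 1.53 ± 1.35. The 13 protein genes of the mitochondrial genome gave 8 higher and 0 lower calls. The count was 5 without L2C embryo 1, 10 without E2C embryos 2 and 3, 1 in thinned cells and 0 with median-ratio size factors. Transcripts of the mitochondrial genome took 3.16% to 6.9% of gene UMIs in E2C and 8.74% to 18.9% in L2C (two-sided exact permutation test of the means, p = 0.00433, n = 5 and 6). Of isoform UMIs these transcripts took 4.91% to 14.6% in E2C and 12.5% to 26.6% in L2C. The isoform ranges overlapped (two-sided exact permutation test of the means, p = 0.0346, n = 5 and 6). mt-Nd3 and mt-Nd4, of complex I, rose from 49.5 ± 24.5 to 140.4 ± 45.9 and from 449.7 ± 223 to 1217 ± 378.

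Nucleotide synthesis gave 16 higher and 7 lower calls of 31 members tested (median log2 fold change 1.25), or 13 and 10 with median-ratio size factors. Prps1, which makes the ribose donor of nucleotides, stood at 4.79, 5.47, 4.76, 5.79 and 8.07 copies in E2C and at 136 to 245 (median 199.6) in L2C, without overlap (log2 fold change 4.78, SE 0.335, adjusted p = 2.77e-18 by limma). Ppat, the committed step of purine synthesis, rose from 0.766 ± 0.494 to 40.1 ± 19.1, and Nme2, a nucleoside diphosphate kinase, from 8.18 ± 4.8 to 161 ± 66. Mthfd2, of mitochondrial one-carbon metabolism, fell from 32.4 ± 9.82 to 5.55 ± 1.77. Glucose transport and glycolysis gave 6 higher and 2 lower calls of 21 members tested, with a median log2 fold change of 0.27 that became -0.02 with median-ratio size factors. The calls were then 6 and 4, and 2 and 2 in thinned cells. All genes gave 25.6% higher and 22.8% lower calls. Ldhb, a lactate dehydrogenase subunit, stood at 304, 235, 177, 325 and 338 copies in E2C and at 5.56 to 29.8 (median 13.3) in L2C. It did not overlap, nor did Dlat, of the pyruvate dehydrogenase complex, which fell from 10.7 ± 1.26 to 1.33 ± 2.18, or Slc16a6, a transporter of the monocarboxylate family, which rose from 1.37 ± 0.971 to 15.6 ± 3.98. In the list of metallothionein and oxidative defence, which gave 9 higher and 4 lower calls of 28 members tested or 7 and 2 in thinned cells, the peroxiredoxins parted: Prdx1 fell from 282 ± 61.3 to 34.8 ± 13.5 and Prdx4 rose from 1.1 ± 0.846 to 31.9 ± 17.5.

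DNA replication had no stable direction, with 13 higher and 9 lower calls of 50 members tested, 7 and 14 with median-ratio size factors, 2 and 7 in thinned cells, and 8 and 11 without E2C embryos 2 and 3. The shares of all genes were 25.6% higher and 22.8% lower. Subunits of the single-strand binding protein RPA parted. Rpa3 stood at 78.5, 98.1, 110.4, 103 and 107 copies in E2C and at 3.36 to 22.3 (median 8.4) in L2C, without overlap (log2 fold change -3.56, SE 0.277, adjusted p = 1.07e-16 by limma), whereas Rpa2 rose from 1.42 ± 0.708 to 24.5 ± 11.6. Orc5, of the origin recognition complex, fell from 26.3 ± 3.02 to 2.44 ± 1.79.

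**Figure D3:**
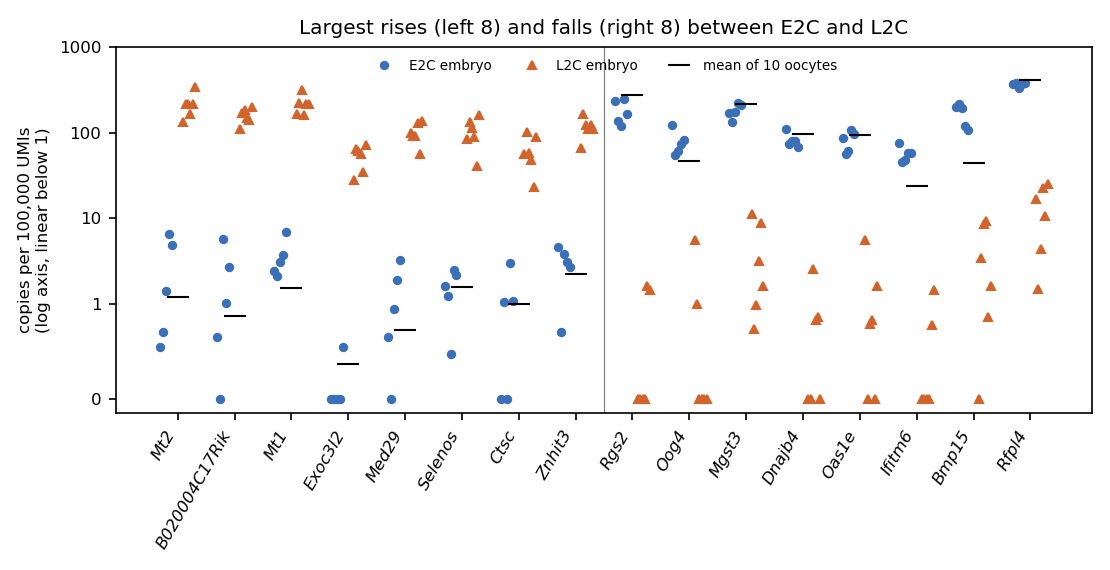
Copies per 100,000 UMIs (log axis, linear below 1) of the 8 genes with the largest rise and the 8 with the largest fall, for each E2C (circles) and L2C (triangles) embryo, with the mean of 10 oocytes as a bar. Mt2 is at most 6.62 in E2C and at least 134 in L2C, Rgs2 at least 119 in E2C and at most 1.64 in L2C, and such gaps were part of the rule that chose the genes.

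Oocyte factor genes were called lower far more often than higher. Rgs2, a regulator of G protein signalling, stood at 232, 136, 119, 246 and 166 copies in E2C and at 0 to 1.64 (median 0) in L2C, the largest fall under that rule (log2 fold change -6.92, SE 0.415, adjusted p = 3.28e-21 by limma). Mgst3, a microsomal glutathione transferase, stood at 169, 132, 174, 219.6 and 211 copies in E2C and at 0.74 to 11.1 (median 2.39) in L2C, and Dnajb4, an Hsp40 cochaperone, at 109.5, 73.8, 80.2, 79.4 and 68.6 copies in E2C and at 0 to 2.57 (median 0.414) in L2C. None of the 3 overlapped. The other genes among the 8 largest falls were Oog4 (78.8 ± 26.4 to 1.09 ± 2.23), Oas1e (82 ± 22.6 to 1.47 ± 2.1), Ifitm6 (57 ± 12.1 to 0.376 ± 0.622), Bmp15 (167 ± 49.5 to 3.99 ± 4.05) and Rfpl4 (369 ± 20.2 to 13.4 ± 9.57). Oocyte growth factors and secreted proteins gave 0 higher and 23 lower calls of 25 members tested, and their summed level went from 4434 ± 425 to 958 ± 576 copies. Bmp15, a growth factor the oocyte sends to its follicle, stood at 199, 215, 194, 119 and 109 copies in E2C and at 0 to 9.3 (median 2.55) in L2C (log2 fold change -5.31, SE 0.48, adjusted p = 1.99e-14 by limma). Its oocyte mean was 44.2, below every E2C embryo. E330021D16Rik, another oocyte transcript, fell from 349.8 ± 118 to 19.2 ± 21.7.

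Tandem families of the oocyte went down member by member, against 22.8% of all genes. All 8 maternal Nlrp genes tested, all 12 of the Fbxw cluster and all 6 of the Tcl1 cluster were called lower. Their summed levels went from 347 ± 28.7 to 33.9 ± 21.2, from 692 ± 271 to 63.2 ± 29.4 and from 1446 ± 275 to 159 ± 96.9 copies. Nlrp9b stood at 37.4, 25.2, 33.1, 33.1 and 32.9 copies in E2C and at 0 to 0.736 (median 0) in L2C. Tcl1, a coactivator of the kinase AKT, stood at 886, 641, 569, 881 and 869 copies in E2C and at 14.7 to 128 (median 67.9) in L2C. Neither overlapped (log2 fold change -4.89, SE 0.396, adjusted p = 4.60e-16 by limma, for Nlrp9b and log2 fold change -3.98, SE 0.414, adjusted p = 2.05e-12 by limma, for Tcl1). Fbxw20, an F-box gene, fell from 39 ± 14.2 to 0.545 ± 1.0. The Oog and Pramel genes, a single larger family, gave 3 higher and 8 lower calls of 13 members tested: Oog1, Oog2, Oog3 and Oog4 were called lower, and Pramel4, Pramel6 and Pramel7 higher. C87977 fell from 64.1 ± 25.5 to 2.14 ± 1.98 and Pramel7 rose from 1.28 ± 1.12 to 15.9 ± 4.2. Members of these families, and of Obox, Zscan4 and Tdpoz, are near copies, and reads could be split between them.

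The subcortical maternal complex, a protein lattice of the egg, gave 0 higher and 6 lower calls of 10 members tested, or 0 and 9 with median-ratio size factors. Zbed3 stood at 656, 1111, 895, 1024 and 1161 copies in E2C and at 11.5 to 83.5 (median 25.6) in L2C, without overlap (log2 fold change -5.27, SE 0.371, adjusted p = 3.03e-18 by limma). Nlrp4f and Ooep fell from 82.8 ± 16.4 to 4.84 ± 4.12 and from 57.6 ± 22.6 to 3.31 ± 3.11. Zona pellucida and egg surface genes gave 2 higher and 2 lower calls of 8 members tested. That is near the shares over all genes, 25.6% higher and 22.8% lower. With median-ratio size factors the calls were 2 and 5, and in thinned cells 1 and 3. Izumo1r, the egg receptor for sperm, stood at 12.6, 7.23, 6.92, 16.3 and 9.74 copies in E2C and 0 in every L2C embryo, and Umodl1 fell from 21.5 ± 4.61 to 0.662 ± 0.794. Zp3, a zona protein, was called higher and stood at 8.6, 4.23, 2.65, 5.51 and 4.87 copies in E2C and at 15.9 to 42.1 (median 20.03) in L2C (log2 fold change 1.93, SE 0.534, adjusted p = 0.00159 by limma).

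Genes that store and remove maternal RNA were called lower more often than higher, against 25.6% higher and 22.8% lower over all genes. Deadenylation and decay gave 4 higher and 13 lower calls of 35 members tested, or 2 and 15 with median-ratio size factors and 1 and 11 in thinned cells. Btg4, the adaptor that brings the CCR4-NOT deadenylase to maternal RNA, stood at 657, 498, 583, 605 and 661 copies in E2C and at 20.2 to 86.5 (median 35.3) in L2C, without overlap (log2 fold change -4.04, SE 0.451, adjusted p = 1.86e-11 by limma). Of the deadenylase subunits Cnot6l and Cnot7 fell from 51.3 ± 20.5 to 8.2 ± 10.3 and from 133 ± 15.1 to 22.8 ± 6.91, while Cnot8, the close relative of Cnot7, rose from 14 ± 3.47 to 35.4 ± 7.35. Dcp1a, a decapping cofactor, was called lower, from 41.3 ± 9.89 to 11.8 ± 14.2, with overlap. Maternal mRNA storage gave 3 higher and 10 lower calls of 25 members tested, or 1 and 8 in thinned cells. Dazl and Zar1, RNA-binding proteins of the oocyte, fell from 69.7 ± 16.8 to 1.9 ± 1.79 and from 27.5 ± 10.9 to 1.52 ± 2.01. The oocyte Y-box protein Ybx2 fell from 9.53 ± 1.31 to 3.3 ± 1.91 and its relative Ybx1 rose from 6.57 ± 1.97 to 43.1 ± 6.99.

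Among cell cycle genes, meiotic arrest and exit gave 5 higher and 11 lower calls of 31 members tested, and the spindle checkpoint and Aurora kinases 5 higher and 9 lower calls of 35 members tested, with a median log2 fold change of 0.04 that became -0.37 with median-ratio size factors. The calls of the latter were then 3 and 11, and 3 and 7 in thinned cells. Of all genes 25.6% were called higher and 22.8% lower. Wee2, the oocyte kinase that inhibits Cdk1, stood at 79.1, 98.9, 94.3, 96.1 and 70.1 copies in E2C and at 0 to 12.2 (median 3.91) in L2C. Cdk1 stood at 5.89, 1.42, 4.14, 6.13 and 5.94 copies in E2C and at 22.3 to 91.8 (median 75.4) in L2C. The stages did not overlap for either (log2 fold change -4.38, SE 0.42, adjusted p = 1.47e-13 by limma, for Wee2 and log2 fold change 3.74, SE 0.316, adjusted p = 1.86e-15 by limma, for Cdk1). Fbxo43, which holds the anaphase-promoting complex in meiosis, fell from 17.5 ± 2.69 to 0.797 ± 1.6. Aurkc, the germ cell Aurora kinase, fell from 63.8 ± 23.4 to 6.7 ± 4.52 and Aurkb was called higher, from 0.601 ± 0.715 to 7.76 ± 4.58, with overlap. Pttg1, or securin, fell from 1093 ± 117 to 90.9 ± 27.3, and Nuf2, of the kinetochore, from 26.8 ± 4.55 to 1.45 ± 1.68.

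Chromatin and DNA methylation genes gave 9 higher and 14 lower calls of 42 members tested, beside 25.6% and 22.8% over all genes. With median-ratio size factors the calls were 8 and 18. Kdm5b, a demethylase of histone H3, stood at 0, 0, 0.948, 0.483 and 0 copies in E2C and at 5.56 to 44.9 (median 30.6) in L2C, without overlap (log2 fold change 4.59, SE 0.354, adjusted p = 8.33e-17 by limma). Zfp57, which protects imprints, and Uhrf1, a partner of the maintenance DNA methyltransferase, fell from 104 ± 31.1 to 9.72 ± 5.77 and from 17.3 ± 5.67 to 1.23 ± 1.27. Tet3, the dioxygenase of DNA demethylation in the zygote, was called lower, from 36.2 ± 5.22 to 8.88 ± 12.2, with overlap.

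Genes of the embryo's own programme had calls both ways. The 2-cell burst genes gave 6 higher and 6 lower calls of 32 members tested, and 9 and 2 without E2C embryos 2 and 3, or 6 and 3 in thinned cells. Across all genes 25.6% were called higher and 22.8% lower. Duxf3, the Dux gene, stood at 6.64, 2.13, 5.5, 6.06 and 3.24 copies in E2C and 0 in every L2C embryo. Tcstv1 stood at 34.9, 22.2, 31.9, 29.1 and 30.3 copies in E2C and at 0 to 4.14 (median 0.822) in L2C. Zscan4c, Gm4340, BB287469 and BC080695 were called lower with overlap. B020004C17Rik, Usp17lb and Tdpoz1 were called higher without overlap, and Tdpoz4, Tdpoz5 and AF067063 with overlap, AF067063 standing at 0, 0, 3.53, 0 and 1.09 copies in E2C and at 0 to 66.2 (median 23.8) in L2C.

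The Obox homeobox family split, with none of its 7 members overlapping, which held for 27.6% of all genes tested. Obox1 stood at 341, 266, 249.7, 295 and 334 copies in E2C and at 4.93 to 14.3 (median 9.22) in L2C, and Obox6 at 0.652, 0, 2.04, 2.0 and 1.63 copies in E2C and at 46.3 to 87.1 (median 61.3) in L2C (log2 fold change -5.05, SE 0.376, adjusted p = 2.50e-17 by limma, for Obox1 and log2 fold change 4.95, SE 0.389, adjusted p = 1.51e-16 by limma, for Obox6). Obox2, Obox5 and Obox7 fell, from 257 ± 91.5 to 16.7 ± 13.4, from 284 ± 18 to 21.4 ± 10.02 and from 43 ± 7.75 to 1.18 ± 0.939. Obox8 and Obox3 rose, from 1.59 ± 1.3 to 39 ± 18.4 and from 0.227 ± 0.316 to 6.86 ± 5.53. Pluripotency and early lineage factors gave 13 higher and 4 lower calls of 35 members tested, with a median log2 fold change of 0.35 that became 0.00 with median-ratio size factors, and with 10 and 2 calls in thinned cells. Dppa4 stood at 2.4, 2.66, 2.04, 2.07 and 4.33 copies in E2C and at 61.2 to 102 (median 73.3) in L2C, without overlap (log2 fold change 4.51, SE 0.44, adjusted p = 2.65e-13 by limma), and its partner Dppa2 rose from 8.33 ± 2.31 to 57.9 ± 13. Pou5f1, or Oct4, was called lower, from 6.84 ± 2.34 to 2.41 ± 4.38, with overlap.

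The isoform table sorts transcripts by how their splice junctions match the annotation: full splice match (FSM), incomplete splice match (ISM, a run of known junctions with an end missing), NIC (known splice sites in a combination that is not annotated) and NNC (at least 1 splice site that is not annotated). FSM isoforms of several exons were called higher more often than lower, and ISM and NNC isoforms lower more often than higher. Of 29409 isoforms tested 3787 were called higher (12.9%) and 3852 lower (13.1%). FSM of several exons gave 19.7% higher and 14% lower, FSM of 1 exon 15.9% higher and 13.9% lower, ISM 7.55% higher and 11.4% lower, NIC 12% higher and 12.4% lower, and NNC 10.6% higher and 17% lower. With median-ratio size factors the totals were 2332 higher and 5382 lower, and the higher share of calls went from 49.6% to 30.2%. Isoforms that cover an annotated start codon and no stop codon gave 15.9% higher and 4.93% lower, and those with a stop and no start codon 7.61% higher and 12.9% lower. No UMI in L2C and some in every E2C embryo was found for 912 isoforms, 376 of them ISM and 188 NNC. Of all 68012 isoforms 32615 are ISM and 9958 NNC. The reverse was found for 140, which needed a UMI also in the single cell of L2C embryo 1 with its 10965 isoform UMIs. The median length was 1149 bases for isoforms called higher and 1259 for those called lower.

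Weighted by UMIs every splice class overlapped between the stages. ISM took 19.7%, 23.9%, 19.7%, 16% and 18% of isoform UMIs in the E2C embryos and 11.7% to 17.3% (median 15.1%) in L2C. These ranges overlapped (adjusted p = 0.026 by exact permutation test, two-sided, adjusted over 15 measures). NIC went from 4.42% ± 0.553 to 3.47% ± 0.471 (adjusted p = 0.026 by exact permutation test), and NNC from 5.58% ± 0.477 to 4.83% ± 0.828 (adjusted p = 0.141 by exact permutation test). FSM of several exons went from 58.6% ± 6.79 to 58.2% ± 6.14 (adjusted p = 0.92 by exact permutation test). FSM of 1 exon went from 11.9% ± 5.31 to 18.6% ± 5.37 (adjusted p = 0.109 by exact permutation test), and mitochondrial transcripts made 73.6% of it in E2C and 88.1% in L2C. Without mitochondrial transcripts the difference was -3.56 points for ISM (exact permutation, adjusted p = 0.183) and -0.69 for NIC (exact permutation, adjusted p = 0.10), which ended both calls. With equal weight to the 1439 genes present in every embryo ISM was at -3.29 points (exact permutation, adjusted p = 0.266). NIC was then higher in L2C, by 0.97 points, and passed in that direction (exact permutation, adjusted p = 0.0352). Without E2C embryos 2 and 3 ISM no longer passed (-2.99 points, adjusted p = 0.104 by exact permutation test) and FSM of 1 exon did (10.47 points, adjusted p = 0.0298 by exact permutation test). The smallest p that 5 against 6 embryos allow is 0.00216.

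**Figure D4:**
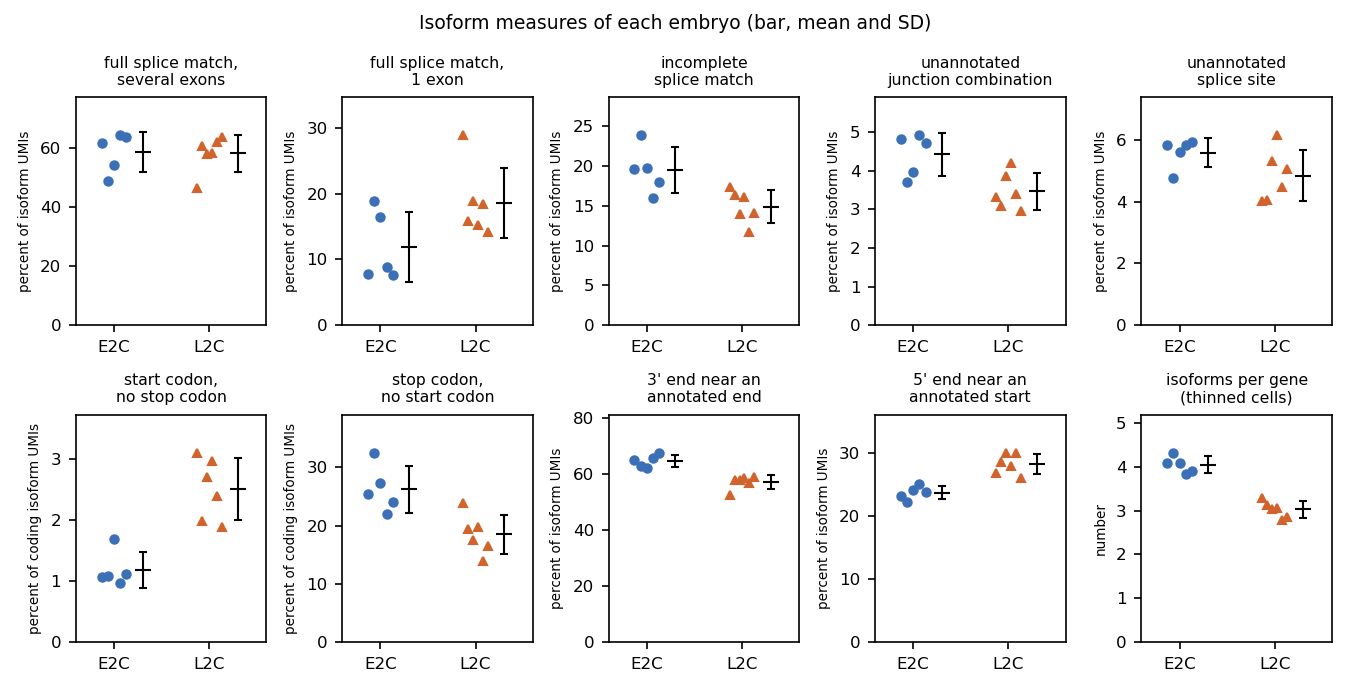
Isoform measures of each E2C (circles) and L2C (triangles) embryo, in percent of UMIs or in isoforms per gene, with mean and SD and axes from 0. The stages separate for transcripts with a start and no stop codon (0.966% to 1.7% against 1.9% to 3.11%), for both end measures and for isoforms per gene, and overlap for the splice classes.

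Transcript ends and the codons that transcripts cover also differed between the stages, by less where each gene had equal weight. Each collapsed isoform has the same ends and codons in all stages, so these measures follow which isoforms were abundant. A 3′ end within 50 bases of an annotated end was found for 65.2%, 62.8%, 62.1%, 65.7% and 67.7% of UMIs in E2C and 52.5% to 59.2% (median 57.9%) in L2C. No embryo overlapped (adjusted p = 0.0108 by exact permutation test), and the difference was -7.53 points, or -3.67 without mitochondrial transcripts and -1.92 with equal weight to the genes present in every embryo. A 5′ end within 50 bases of an annotated start was found for 23.1%, 22.3%, 24.1%, 25.1% and 23.8% in E2C and 26.1% to 30.1% (median 28.3%) in L2C, again without overlap (adjusted p = 0.013 by exact permutation test). With equal gene weight that difference fell from 4.56 to 2.55 points and no longer passed (exact permutation, adjusted p = 0.0675). Transcripts with a start and no stop codon rose from 1.19% ± 0.292 to 2.51% ± 0.504 of coding isoform UMIs (adjusted p = 0.013 by exact permutation test), a difference of 1.32 points that was 0.69 with equal gene weight. Their mean share was 1.98% in oocytes, 3.27% in zygotes and 1.53% in 4-cell embryos. The study, which predicted open reading frames instead, reported its 3-prime partial transcripts as high in oocytes and zygotes and lower from E2C. Transcripts with a stop and no start codon went from 26.2% ± 4.0 to 18.5% ± 3.34 (adjusted p = 0.0139 by exact permutation test). Those with neither codon went from 1.4% ± 0.271 to 0.623% ± 0.232 (adjusted p = 0.0108 by exact permutation test). The call for a stop and no start codon was lost without mitochondrial transcripts (exact permutation, adjusted p = 0.0506) and with equal gene weight (-4.35 points, adjusted p = 0.253 by exact permutation test). For neither codon the difference of -0.78 points was -0.24 with equal gene weight. Without E2C embryos 2 and 3, where 3 against 6 embryos allow no p under 0.0119, stop codon alone and neither codon had adjusted p = 0.0714 and 0.051 by exact permutation test.

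Fewer isoforms were seen per gene in L2C. In cells thinned to 10000 isoform UMIs, genes with 5 UMIs or more had 4.08, 4.32, 4.08, 3.84 and 3.91 isoforms in E2C and 2.78 to 3.29 (median 3.04) in L2C, without overlap (adjusted p = 0.0108 by exact permutation test). The major isoform held 62.6% ± 3.18 and 70.2% ± 3.05 of the UMIs of a gene (adjusted p = 0.0139 by exact permutation test), or adjusted p = 0.0714 by exact permutation test without E2C embryos 2 and 3. In the 76 genes that met the minimum in every embryo, isoforms per gene differed by -0.45 (exact permutation, p = 0.0195, adjusted p = 0.039). The major share differed by -1.12 points, the other way (exact permutation, adjusted p = 0.461). Both were adjusted over these measures alone and not over 15.

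Single isoforms put names to these classes. The largest rises were isoforms of B020004C17Rik, Mt2, Mt1 and Selenos, and the largest falls isoforms of Rgs2, Mgst3, Oog4, AU022751 and Oas1e. The 1-exon FSM isoform of AU022751, an oocyte transcript, stood at 323, 483, 390.4, 241 and 284 copies in E2C and at 0.965 to 10.2 (median 7.99) in L2C. An NNC isoform of Rpl41 with 4 exons and 716 bases stood at 9.44, 18.9, 22.6, 28 and 35.1 copies in E2C and at 541 to 1165 (median 911) in L2C, without overlap (log2 fold change 5.42, SE 0.404, adjusted p = 8.29e-17 by limma). Its 5′ end lies at -2667 bases from the nearest annotated start, a negative value being upstream. A NIC isoform of Rps24, a small-subunit protein, had no UMI in E2C and 8.08 to 30.03 (median 12.3) copies in L2C. An ISM isoform of Foxr1, a forkhead gene, which covers the start and no stop codon, rose from 0.323 ± 0.442 to 33.1 ± 15.4 copies. A NIC isoform of Tipin, a replication fork protein, rose from 0.453 ± 0.661 to 14 ± 2.67 copies while the gene had a log2 fold change of 0.21. A NIC isoform of E330034G19Rik stood at 549.5, 383, 428, 581 and 615 copies in E2C and at 5.93 to 80.8 (median 17.2) in L2C, and an NNC isoform of Tcstv1 fell from 40.8 ± 4.6 to 0.753 ± 1.33 copies.

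In 175 genes isoforms were called in both directions. Pole4, a histone-fold subunit of DNA polymerase epsilon, had a gene log2 fold change of -0.34. Its FSM isoform of 863 bases stood at 6.07, 3.37, 3.92, 3.04 and 2.5 copies in E2C and at 41.7 to 80.8 (median 51.9) in L2C. Its FSM isoform of 1917 bases stood at 25, 25.3, 16.6, 31.8 and 39.4 copies in E2C and at 0 to 16.2 (median 1.07) in L2C. Neither overlapped (log2 fold change 3.49, SE 0.424, adjusted p = 1.13e-09 by limma, for the shorter and log2 fold change -3.50, SE 0.555, adjusted p = 7.73e-07 by limma, for the longer). Both have 4 exons and cover the start and the stop codon. For Med27, a Mediator subunit, a 7-exon NIC isoform stood at 95.3, 58.5, 68.2, 86.9 and 80.4 copies in E2C and at 0 to 8.12 (median 1.93) in L2C, without overlap, while the 8-exon FSM isoform was called higher, from 0.167 ± 0.373 to 9.51 ± 7.0, with overlap. For Uck2, a uridine and cytidine kinase, a 6-exon NIC isoform without a start codon fell from 9.77 ± 2.9 to 0.357 ± 0.553 and the 7-exon FSM isoform rose from 0.619 ± 0.987 to 30.3 ± 19.1. For Fbxo15, an F-box gene of pluripotent cells, a 2-exon NNC isoform fell from 12.4 ± 6.86 to 0.182 ± 0.447 and the 10-exon FSM isoform rose from 1.6 ± 1.65 to 33.6 ± 21.6.

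**Figure D5:**
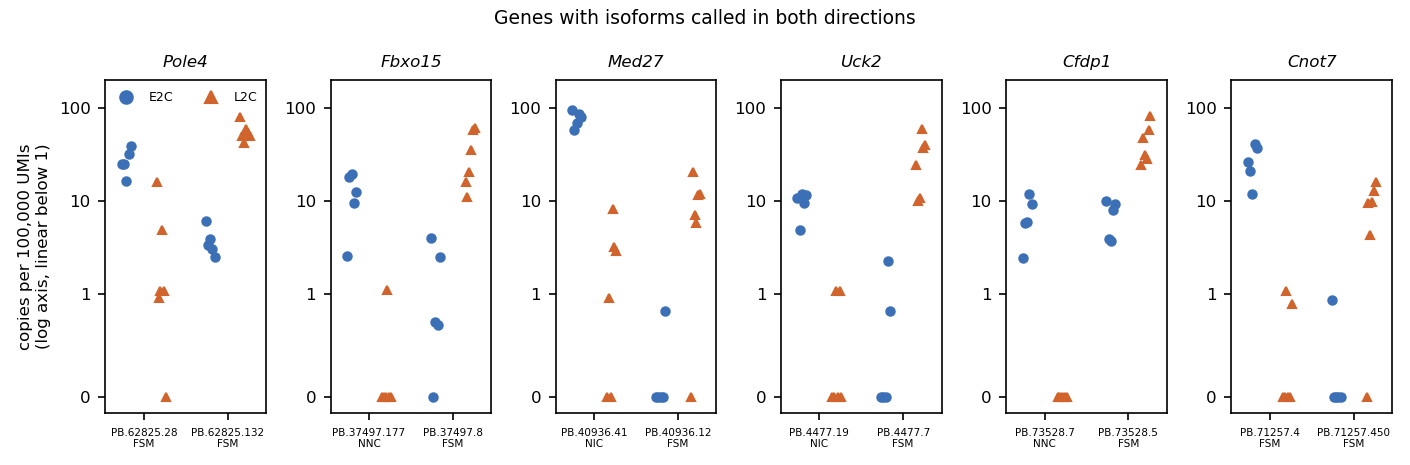
Copies per 100,000 UMIs (log axis, linear below 1) of 1 falling and 1 rising isoform of 6 genes, for each E2C (circles) and L2C (triangles) embryo, labelled with isoform and splice class. In Med27 the falling NIC isoform is at 58.5 to 95.3 copies in E2C and at most 8.12 in L2C, and the rising FSM isoform at most 0.834 in E2C.

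Cfdp1 and Cnot7 also passed the test of isoform shares within the gene. Cfdp1, a chromatin factor, rose as a gene from 16.9 ± 6.02 to 68.7 ± 26.2 copies. Its 2-exon NNC isoform stood at 2.43, 5.8, 5.93, 11.8 and 9.24 copies in E2C and 0 in every L2C embryo, and its share of the gene went from 40.8% to 0% (adjusted p = 1.59e-04 by limma). The 7-exon FSM isoform rose from 6.98 ± 2.95 to 45.5 ± 22.3 copies, with shares of 41.7% and 57.9% (adjusted p = 0.183 by limma). In Cnot7, which fell as a gene, the 7-exon FSM isoform of 2575 bases stood at 26.3, 20.9, 12, 41.3 and 36.9 copies in E2C and at 0 to 1.07 (median 0) in L2C. A 3-exon isoform of 783 bases that covers the start and no stop codon was called higher with overlap, from 0.189 ± 0.423 to 8.74 ± 5.8 copies, and its share went from 0.17% to 54.2% (adjusted p = 1.11e-04 by limma). Ncl did not pass (gene adjusted p = 0.653 by limma). The study's Ncl switch runs from short isoforms of oocytes and zygotes to the complete isoform. None of the Ncl isoforms tested here covers the start and no stop codon, so this step could not test it. The 14-exon Ncl isoform with both codons was called higher with overlap, from 0.819 ± 0.793 to 5.47 ± 5.3 copies. So was a 2-exon isoform without a start codon, from 1.21 ± 1.45 to 7.87 ± 6.12.

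Of 3147 genes tested for a switch 432 passed (13.7%), with 800 isoforms. Of 7708 ISM isoforms tested 198 lost share and 33 gained it. The counts were 203 and 186 of 6052 for FSM of several exons, 95 and 27 of 1539 for NNC, and 30 and 17 of 1292 for NIC. Depth limits this test: the median switch gene had 69.5 UMIs over E2C and 35.5 over L2C, 223 had fewer than 20 in a stage, and 242 genes passed when 20 were required. The 4 genes with the smallest adjusted p, Tpmt, 1600012H06Rik, Gm28578 and Chaf1b, rested on 4 to 25 UMIs a stage. The following genes had 20 UMIs or more, and shares are means over embryos with the gene's UMIs in brackets. In Fam104a the FSM isoform of 1462 bases held 80.3% in E2C (329 UMIs) and 24.6% in L2C (224 UMIs). Its FSM isoform of 828 bases held 5.24% and 71%. Both have 3 exons and both codons. In Ska1, of the kinetochore, a 7-exon FSM isoform held 0% (32 UMIs) and 37.8% (150 UMIs). In Pcgf6, a Polycomb protein, an NNC isoform without a start codon held 53.8% (139 UMIs) and 0% (34 UMIs). In Gm15286 an NNC isoform held 34.3% (194 UMIs) and 0% (39 UMIs).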

How the data were processed

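RNA of single blastomeres was read on the PacBio platform as pooled, barcoded cDNA with UMIs. The authors made consensus reads, assigned barcodes and UMIs, mapped to mm10 with minimap2 and used gffcompare for the gene of each read. For isoforms they used cDNA_Cupcake to collapse reads, SQANTI3 to classify them, and a minimum of 5 cells per isoform. The deposited values are CPM divided by 10, for which the authors give mapped reads as the denominator. Of the deposited values 100% were whole multiples of 1 UMI within 0.1, so they are read here as copies per 100,000 UMIs of a cell, and UMIs were recovered for depth, thinning and the count models. Isoforms were matched to GENCODE M21 for coding start and stop codons and for ends. Open reading frames were not analysed here.

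Values were averaged per embryo. Genes and isoforms with at least 1 copy in at least 4 individuals were fitted with limma 3.58.1 (trend, array weights) on log2(value + 1) over 43 individuals of 7 stages in 1 fit, contrast L2C minus E2C. Fold changes are on that scale, which understates low genes. A call needed a change of more than 2-fold either way and a p, before adjustment, below 0.01. Adjustment was by the Benjamini-Hochberg method across all features tested. Shares were compared with two-sided exact permutation tests over embryos, in the main setting adjusted over 15 measures. Each alternative was adjusted over the measures it recomputed, which were fewer in some. Adjusted p-values of different settings therefore do not share 1 correction. For switches, limma was run on arcsine square root transformed isoform shares (gene adjusted p under 0.01, isoform adjusted p under 0.05). edgeR 4.0.16 and DESeq2 1.42.0 on recovered UMIs were alternatives, run in R 4.3.3. Other steps used Python 3.11.15, numpy 2.4.6, pandas 2.3.3, scipy 1.17.1 and matplotlib 3.10.9. No source says that embryos of a stage came from separate litters, so p-values measure the spread between individuals and not between litters. For limma on genes and isoforms that spread is pooled over the 43 individuals of 7 stages. The permutation and switch tests use the E2C and L2C embryos alone.

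The tests were tried on simulated data with known changes in abundant features, at a spread set in advance. They recovered 89.5% of 200 gene changes of 4-fold, 76% of 200 such isoform changes and 43% of 200 switches. The embryos, lists and tests were chosen with earlier results of these data known. Named genes are the 8 largest rises and 8 largest falls at 10 copies or more without overlap, and in each list up to 3 called members with the largest change at that level. Further list members and relatives were named after their values were seen. The isoforms named come from the 5 largest changes each way, the largest of each splice class, the genes with the largest opposite calls and the clearest switches, with Cfdp1, Cnot7 and Ncl from the study. Alternatives covered the pseudocount, the filter, weights, scaling, thinning and leaving out each embryo. The table of split oocytes was not used here. The barcode sequences of cells are not part of the column names used, so shared barcodes were not counted.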

Additional observations from a re-analysis of the deposited data

Results flagged for a closer look

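In 62 groups of 5 or 6 embryos checked for 1 value far from the others, 11 were found. The limit used passes about 1 in 20 groups where these are independent and normal. Here some genes were near 0 copies in a stage and the shares depend on each other. The count can therefore not be set against that rate. L2C embryo 1, a single cell with the fewest UMIs, gave 5 of the 11. Its FSM share of several exons was 46.5% (others 58% to 63.7%), its single-exon FSM share 28.9% (others 14.2% to 19%) and its share of UMIs with a 3′ end near an annotated one 52.5% (others 56.9% to 59.2%). In the same cell Oog4 was at 5.56 copies (others 0 to 1.0) and Oas1e at 5.56 copies (others 0 to 1.61), which is 1 UMI in that cell. In E2C embryo 2 the NNC share was 4.76% (others 5.59% to 5.91%). In E2C embryo 3 the share of coding isoform UMIs with a start and no stop codon was 1.7% (others 0.966% to 1.13%). In L2C embryo 3 Mt1 was at 319 copies (others 162 to 221) and Dnajb4 at 2.57 copies (others 0 to 0.861). In E2C embryo 1 Dnajb4 was at 109.5 copies (others 68.6 to 80.2). In E2C embryo 5 Exoc3l2 was at 0.543 copies (others at 0).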

How the results depend on the processing

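No paired analysis was possible because E2C and L2C embryos are different embryos and a shared number marks no pairing.

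Gene calls (2990 higher, 2664 lower) were 1489 and 1168 with a pseudocount of 5, 1084 and 1054 with edgeR, and 1029 and 1104 with DESeq2, and 2062 of the 2138 edgeR calls were also limma calls in the same direction. The count models tested 2871 genes and 1169 isoforms. Thinned cells gave 1526 lower calls. Leaving out each embryo gave 2873 to 3058 and 2457 to 2692. Isoform calls (3787 and 3852) were 1080 and 1117 with a pseudocount of 5, 1961 and 1929 with a filter of 5 copies, 1982 and 1904 in thinned cells, 430 and 478 with edgeR and 401 and 513 with DESeq2. Median-ratio size factors gave 2332 higher. Leaving out each embryo gave 3534 to 3990 and 3392 to 3861. Switch genes (432) were 197 without the transformation, 242 with 20 UMIs a stage, an alternative added after seeing the data, and 356 to 565 without 1 embryo.

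Differences in type measures are in percentage points. The alternatives without mitochondrial transcripts, with genes present in every embryo, and without E2C embryos 2 and 3 were chosen after seeing the data, as was thinning for these measures. Without mitochondrial transcripts they were 5.31 for FSM of several exons, -0.72 for FSM of 1 exon, -3.56 for ISM, -0.69 for NIC, 7.08 for start and stop codon, -7.51 for stop codon alone and 0.30 exons, and the calls for ISM, NIC, both codons and stop codon alone were lost. With equal weight to 1439 genes present in every embryo they were 2.43 for FSM of several exons, -0.26 for FSM of 1 exon, -3.29 for ISM, 0.97 for NIC, which passed in that direction, 0.14 for NNC, 3.90 for both codons, -4.35 for stop codon alone, 2.55 for the 5′ end and 0.24 exons, and the calls for ISM, both codons, stop codon alone and the 5′ end were lost. Thinned cells gave -0.90 for NIC. Without the 10 most abundant isoforms FSM of several exons was at 2.61 and exon number at 0.0396. Without E2C embryos 2 and 3 FSM of 1 exon was at 10.5 and passed, while ISM at -2.99, both codons at 4.46, stop codon alone at -5.32, neither codon at -0.59 and the major isoform share at 5.82 no longer did. The major share was at -1.12 in the 76 genes present in every embryo.

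Leaving out 1 embryo gave -2.86 to 1.94 for FSM of several exons, -5.41 to -3.45 for ISM, -1.14 to -0.83 for NIC, -1.01 to -0.59 for NNC, 5.57 to 8.45 for both codons and -0.21 to 0.0603 exons. The call was lost in 4 of 11 such fits for ISM, 7 for NIC and 6 for both codons, gained in 1 for NNC, and kept in all for both ends and for start codon alone.

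DNA replication turned to a net of -7 calls with median-ratio size factors, -2 with edgeR and -3 without E2C embryos 2 and 3. Cyp11a1 (-0.0192 without L2C embryo 3, -0.0192 to 0.283 over all embryos left out) and Pecam1 (-0.213 with median-ratio size factors), neither called, changed sign. The causes were not tested. Depth limits single isoforms, with 10965 UMIs in the shallowest L2C cell.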

Other observations

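Gene families picked by name after the values were seen extend the description. Mitochondrial ribosomal protein genes (Mrpl and Mrps) gave 42 higher and 7 lower calls of 78 (median log2 fold change 1.37), or 36 and 9 with median-ratio size factors. Subunits of the RNA polymerases (Polr) gave 22 higher and 2 lower calls of 28 (median log2 fold change 1.99), or 20 and 2 with median-ratio size factors, and mitochondrial import genes (Timm and Tomm) 16 higher and 3 lower calls of 23 (median log2 fold change 2.37), or 15 and 3 with median-ratio size factors. The RNA exosome (Exosc) gave 6 higher and 0 lower calls of 9 (median log2 fold change 1.65), or 5 and 0 with median-ratio size factors, the Integrator complex (Ints) 5 higher and 0 lower calls of 15 (median log2 fold change 0.85), or 5 and 0 with median-ratio size factors, and the hosts of small nucleolar RNAs (Snhg) 9 higher and 0 lower calls of 16 (median log2 fold change 1.18), or 8 and 0 with median-ratio size factors. The shares over all genes were 25.6% higher and 22.8% lower.

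Other families went down or were divided, beside the same shares over all genes (25.6% higher and 22.8% lower). Histone genes named Hist gave 0 higher and 8 lower calls of 17 (median log2 fold change -1.01), or 0 and 9 with median-ratio size factors, although most RNAs of replication-dependent histones lack a poly(A) tail and are poorly captured by poly(A) priming. F-box genes (Fbx) gave 14 higher and 25 lower calls of 63 (median log2 fold change -0.64), or 10 and 29 with median-ratio size factors, and PHD finger genes (Phf) 1 higher and 7 lower calls of 19 (median log2 fold change -0.48), or 0 and 9 with median-ratio size factors. Zinc finger genes named Zfp gave 41 higher and 44 lower calls of 234 (median log2 fold change -0.08), or 31 and 58 with median-ratio size factors, and predicted genes named Gm 118 higher and 259 lower calls of 746 (median log2 fold change -0.59), or 86 and 284 with median-ratio size factors. Solute carriers gave 52 higher and 23 lower calls of 188 (median log2 fold change 0.23), or 39 and 31 with median-ratio size factors.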
